A study of Homo sapiens with 5 samples.

Results

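The genes described here encode the HP1 proteins (CBX1, CBX3 and CBX5), enzymes that write methyl groups on lysine 9 of histone H3 (SUV39H1, SUV39H2, SETDB1, EHMT1 and EHMT2) and TRIM28, which recruits one of these enzymes. They are 9 of the 64252 gene identifiers in the counts, and 8 of them were among the 15341 genes with enough counts to be tested. The group was put together because CBX5 was much lower after knock-down of FAM53C in these same libraries, so the values of CBX5 are given as a description with no test. The cells were RPE-1, an immortalized human retinal pigment epithelial line labelled as wild type apart from the knock-down. Control siRNA (siCtrl, 3 libraries) or pooled siRNAs to FAM53C (siFAM53C, 2 libraries) were transfected at 5 µM, and RNA was collected 48 hr later. The methods speak of duplicates per condition, and which siCtrl libraries they mean is not given in the sources used here, so all were used. The library called siFAM53C replicate 2 here, after its title, has the number 3 in the count table, and no siFAM53C column numbered 2 was analysed here. Counts on genes totalled 24099968, 19694561 and 19260124 for siCtrl and 25615415 and 22993116 for siFAM53C. Nothing in the labels says that the libraries came from separate cultures, so the p-values measure the spread between these libraries only, which may be technical, and 1 pool of siRNAs in 1 cell line was examined.

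In heterochromatin, the compact part of the genome where most genes are silent, histone H3 carries methyl groups on lysine 9, and HP1 proteins bind this mark through their chromodomain and pair with each other through their chromoshadow domain. CBX5 (HP1α) and CBX1 (HP1β) are known mainly from the heterochromatin around centromeres, while CBX3 (HP1γ) is also found along active genes. SUV39H1 and SUV39H2 place the trimethyl mark around centromeres, SETDB1 places it on retroelements and zinc finger genes when TRIM28 (KAP1) brings it there, and EHMT1 (GLP) and EHMT2 (G9a) act as a pair that places the dimethyl mark in gene-rich chromatin.

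The libraries also differed along an axis that was not that of the siRNAs. A principal component analysis of log2 CPM, which are counts scaled to library totals corrected by TMM factors, put 39.8% of the variance on its first axis. There siCtrl replicate 3 (33.7) and siFAM53C replicate 2 (44.9) stood apart from siCtrl replicates 1 and 2 (-31.5 and -47.4), with siFAM53C replicate 1 between them (0.26). The differences of the HP1 and writer genes and of the genes called among their partners are therefore also given within a side of this split: siFAM53C replicate 1 was set against the mean of siCtrl replicates 1 and 2, and siFAM53C replicate 2 against siCtrl replicate 3 alone. The sides were read from these same counts, and placing siFAM53C replicate 1 with siCtrl replicates 1 and 2 is uncertain, since it lay about as far from siCtrl replicate 3, so the within-side values and the fit with a term for the split depend on that choice. Tests across all genes used the quasi-likelihood (QL) method of edgeR, with p-values adjusted by the Benjamini-Hochberg (BH) method over every gene tested and a threshold of 0.05. FAM53C itself, the gene targeted, had 60.9, 59.7 and 57.6 CPM in siCtrl and 14.2 and 22.3 in siFAM53C.

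All 3 HP1 genes had less RNA in both siFAM53C libraries than in every siCtrl library, as had 18.8% of all genes tested. CBX5 is among them, and its low value chose the group. By log2 fold change the order was CBX5, CBX3 and CBX1. The differences between the fold changes of the 3 genes were not tested. CBX5 (ENSG00000094916, chr12:54230942-54280133 of GRCh38, minus strand) had 408, 448 and 558 CPM in the siCtrl libraries. It had 78.6 and 102 CPM in the siFAM53C libraries. The groups were far apart, at 471 ± 77.7 CPM (SD, n = 3) and 90.5 ± 16.9 CPM (SD, n = 2), and the highest siCtrl value was in replicate 3, on the same side of the split as the higher siFAM53C value. The log2 fold change of CBX5 was -2.38 (SE 0.19), the 46th lowest of all genes tested, and the difference was -2.44 within each side of the split. These values rested on 8559 to 10655 counts per siCtrl library and on 2079 and 2414 in the siFAM53C libraries. No exon base of CBX5 is shared with a gene on the opposite strand.

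CBX5 carries the heptamer GACAAGA in its 3′ UTR, the part of the mRNA after the stop codon where short RNAs pair through their seed. The heptamer had been picked out from these same data, so its counts are a description. The longest annotated 3′ UTR of CBX5 has 10813 bases and 3 copies, that of SUV39H1 1446 bases and 1 copy, and those of CBX1, CBX3, SUV39H2, SETDB1, TRIM28, EHMT1 and EHMT2 have 0 copies. FAM53C, the gene targeted, has 1 copy as well. The sites of CBX5 and SUV39H1 are shown because they separate these 2 genes from the other members, and that of FAM53C because it is the target; the siRNA sequences were not used here. Each is given 5′ to 3′ on the strand of the mRNA, as DNA from GRCh38, with the heptamer in capitals and 10 bases to each side, and each site is named by the position of the heptamer from the start of the 3′ UTR.
CBX5 position 745, chr12:54240994-54241020, minus strand: gtgataaaatGACAAGAttattaactg
CBX5 position 2242, chr12:54239497-54239523, minus strand: aattagggtaGACAAGAataggacaaa
CBX5 position 6029, chr12:54235710-54235736, minus strand: gctttccaatGACAAGAgattttctaa
SUV39H1 position 870, chrX:48708430-48708456, plus strand: tagcacttagGACAAGAatgtgcattg
FAM53C position 179, chr5:138347128-138347154, plus strand: gactggccggGACAAGAtaaacggagc

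CBX3 (ENSG00000122565, chr7:26201162-26213607, plus strand) had 264, 306 and 261 CPM in siCtrl and 119 and 123 in siFAM53C. Its 2 siFAM53C values lay close together and well under the lowest siCtrl value. CBX3 fell by 1.19 on the log2 scale (SE 0.12, BH-adjusted p = 0.002129, edgeR QL test), and the difference was -1.25 and -1.09 within the sides of the split. CBX1 (ENSG00000108468, chr17:48070052-48101478, minus strand) had 190, 172 and 181 CPM in siCtrl and 133 and 130 in siFAM53C. Its groups did not overlap either, but its log2 fold change of -0.46 (SE 0.10) was just outside the threshold, with a BH-adjusted p of 0.0509 in the edgeR QL test. Within the sides CBX1 differed by -0.44 and -0.48, and it passed the threshold in 7 of 15 alternative analyses, among them DESeq2 and the fit with a term for the split. CBX3 passed it in all 15 of these alternatives.

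**Figure D1:**
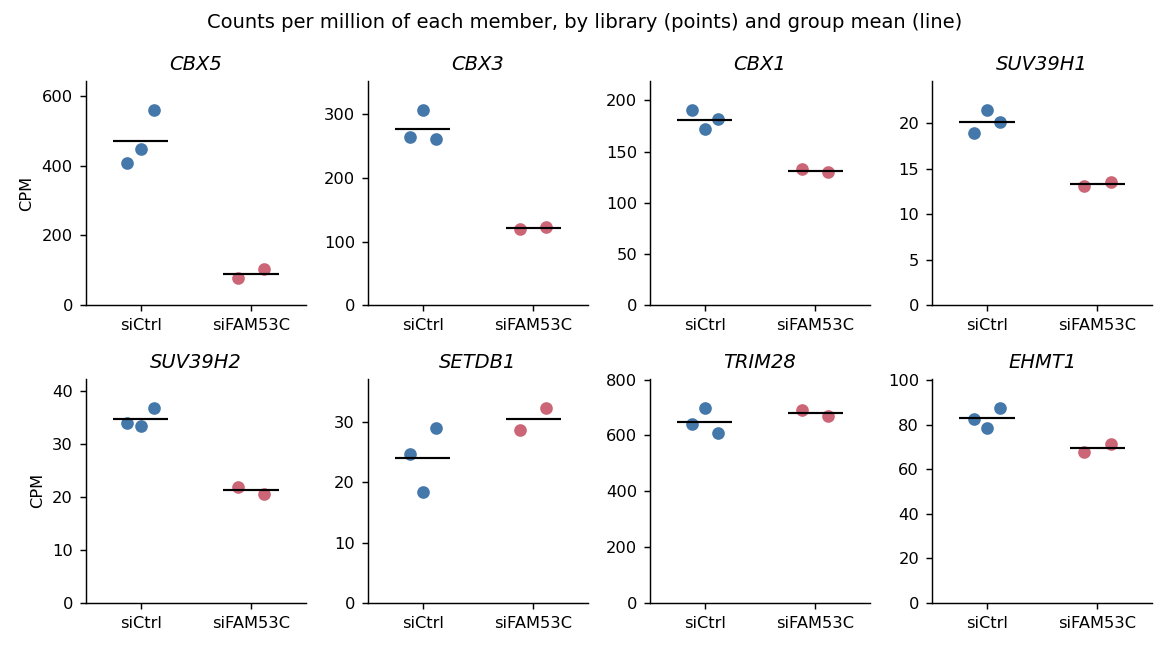
CPM of each gene in the 3 siCtrl and 2 siFAM53C libraries (vertical axes in CPM, each starting at 0 with its own range), with 1 point per library and a line at each group mean. The points of CBX5, CBX3, CBX1, SUV39H1, SUV39H2 and EHMT1 do not overlap between groups, with siFAM53C below siCtrl, whereas those of TRIM28 and SETDB1 overlap. Of all genes tested, 18.8% had both siFAM53C libraries below every siCtrl library.

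Of the 8 genes other than CBX5, 7 were tested, and 2 of them, CBX3 and SUV39H2, were lower after FAM53C knock-down and 0 higher in the edgeR QL test after BH adjustment. Of all genes tested, 3.47% were lower and 0.489% higher. Before adjustment (p under 0.05), 5 of the 7 were lower and 0 higher, the shares over all genes being 10.5% and 6.61%. DESeq2 called 4 lower and 0 higher, against 6.98% and 2.02% of the genes it tested, and the fit with a term for the library split called 5 lower and 0 higher, against 10.7% and 6.76%. Of the same 7 genes, 5 had both siFAM53C libraries below every siCtrl library, which was so for 18.8% of all genes, and 0 had both above, against 16.7%. All of these genes were measured in the same 5 libraries, so they are not independent of each other.

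Among the writers, the 2 enzymes that place the trimethyl mark around centromeres had lower values after knock-down, and only SUV39H2 passed the test. SUV39H2 (ENSG00000152455, chr10:14878820-14904315, plus strand) had 33.9, 33.4 and 36.7 CPM in siCtrl and 21.9 and 20.5 in siFAM53C. The groups were 34.7 ± 1.80 CPM (SD, n = 3) and 21.2 ± 1.01 CPM (SD, n = 2), with no overlap. SUV39H2 fell by 0.71 on the log2 scale (SE 0.13, BH-adjusted p = 0.0247, edgeR QL test), and within the sides by 0.62 and by 0.84. The call of SUV39H2 was lost when siCtrl replicate 1, siCtrl replicate 2 or either siFAM53C library was left out, with log2 fold changes from -0.76 to -0.64 over all alternatives and adjusted p-values up to 0.203. SUV39H1 (ENSG00000101945, chrX:48695554-48709016, plus strand) had 18.9, 21.5 and 20.2 CPM in siCtrl and 13.2 and 13.6 in siFAM53C. These groups did not overlap, yet the log2 fold change of -0.59 (SE 0.15) missed the threshold with a BH-adjusted p of 0.0815 in the edgeR QL test. Within the sides SUV39H1 differed by -0.61 and -0.57, and it passed in 4 of 15 alternatives. Exon bases shared with genes on the opposite strand number 685 in SUV39H1, 159 in SUV39H2, 948 in SETDB1, 893 in EHMT1 and 368 in CBX3, and reads of those genes could be mixed with theirs if the counting did not use strand.

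SETDB1 and TRIM28, which act together on retroelements, did not share this direction. SETDB1 (ENSG00000143379, chr1:150926263-150964744, plus strand) had 24.7, 18.4 and 29.1 CPM in siCtrl and 28.6 and 32.3 in siFAM53C. Its groups overlapped, and its log2 fold change was 0.34 (SE 0.20, BH-adjusted p = 0.4476, edgeR QL test). TRIM28 (ENSG00000130726, chr19:58544064-58550722, plus strand) had 640, 698 and 608 CPM in siCtrl and 692 and 670 in siFAM53C. Both siFAM53C values lay within the siCtrl range, with a log2 fold change of 0.070 (SE 0.11, BH-adjusted p = 0.8275, edgeR QL test). Within the sides of the split SETDB1 differed by 0.43 and 0.15 and TRIM28 by 0.049 and 0.14. Neither gene passed the threshold in any of the 15 alternatives, in which SETDB1 ranged from 0.18 to 0.51 and TRIM28 from 0.026 to 0.14 on the log2 scale.

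Of the pair that places the dimethyl mark, only EHMT1 could be measured. EHMT1 (ENSG00000181090, chr9:137618992-137870016, plus strand) had 82.6, 78.6 and 87.6 CPM in siCtrl and 67.9 and 71.5 in siFAM53C. Both siFAM53C values lay below every siCtrl value, but the log2 fold change of -0.25 (SE 0.10) had a BH-adjusted p of 0.2744 in the edgeR QL test. Within the sides EHMT1 differed by -0.25 and -0.29. It passed the threshold in 2 of 15 alternatives. These were the fit with a term for the split (-0.27, BH-adjusted p = 0.04226, edgeR QL test) and the p-values without adjustment. EHMT2 (ENSG00000204371, chr6:31879759-31897698, minus strand) is listed at 0 counts in all 5 libraries. This 0 cannot be read as absence of EHMT2 RNA, since other genes of the same stretch of chromosome 6, the major histocompatibility complex, were also at or near 0. From HLA-F to KIFC1 (chr6:29722775-33409896), 85 of 149 protein-coding genes (57.0%) had 0 counts in all libraries, against 212 of 874 (24.3%) on the rest of chromosome 6 and 4487 of 18527 (24.2%) on other chromosomes. RPS18, a ribosomal protein gene in this stretch that every cell uses, had 1 count over the 5 libraries. Why the counts are missing there was not tested.

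**Figure D2:**
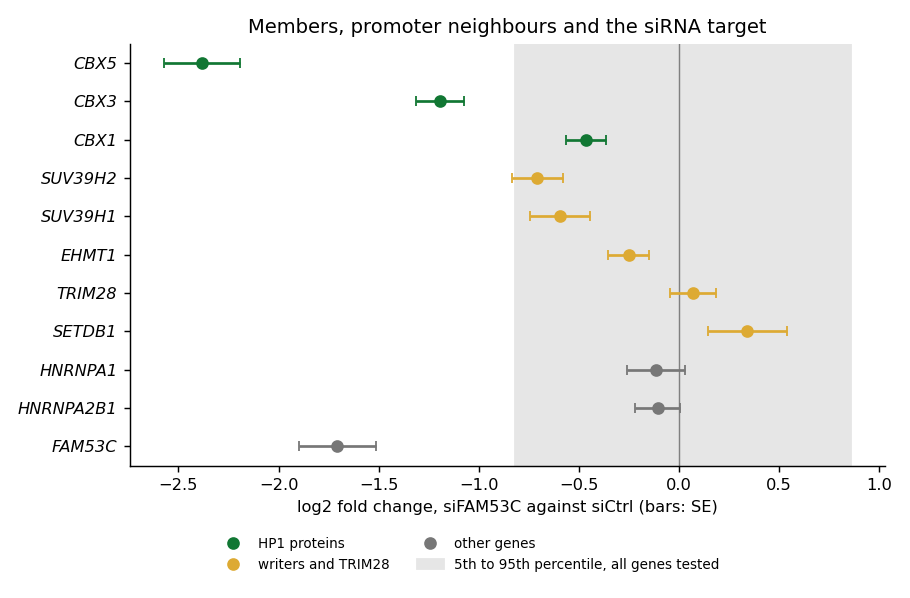
Log2 fold change of siFAM53C over siCtrl for each measured HP1 and writer gene, for HNRNPA1 and HNRNPA2B1, which start next to CBX5 and CBX3, and for FAM53C, with bars of 1 SE and a grey band from the 5th to the 95th percentile of all genes tested. CBX5 (-2.38) and CBX3 (-1.19) lie below the band, as does FAM53C, whereas HNRNPA1 and HNRNPA2B1 lie inside the band near 0, and SETDB1 (0.34) and TRIM28 (0.070) lie above 0.

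Levels were compared between genes only per length, as CPM per kilobase of merged exons. In the siCtrl libraries TRIM28 had the highest level, 151 ± 10.6 CPM per kilobase (SD, n = 3). CBX1 (59.5 ± 3.03) and CBX3 (57.3 ± 5.18) came next and overlapped, and CBX5 followed at 31.4 ± 5.17 CPM per kilobase. The writers were all lower, with SUV39H2 at 9.73 ± 0.504, SUV39H1 at 6.24 ± 0.390, EHMT1 at 3.74 ± 0.202 and SETDB1 at 3.26 ± 0.730 CPM per kilobase, the last 2 overlapping. This order depends on the length used: on the longest annotated transcript CBX3 (130) stood above CBX1 (74.8), and EHMT1 (10.6) above SUV39H1 (6.78), in CPM per kilobase.

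The HP1 genes were also read as a pool, as a description, since the low value of CBX5 chose the group and enters every share that includes it. The summed level of CBX1, CBX3 and CBX5 was 144, 149 and 151 CPM per kilobase in siCtrl and 73.5 and 74.9 in siFAM53C, so the siFAM53C mean was 50.1% of the siCtrl mean. Without CBX5, whose value chose the group, the sum of CBX1 and CBX3 was 117 ± 3.08 CPM per kilobase (SD, n = 3) with control siRNA and 68.2 ± 0.177 (SD, n = 2) after knock-down, or 58.4%. CBX5 made up 18.8%, 19.9% and 24.6% of the HP1 level in siCtrl and 7.11% and 9.10% in siFAM53C. The share depends on the length scaling: without it, the mean share of CBX5 was 50.5% in siCtrl and 26.3% in siFAM53C. The share of CBX1 was 40.2% in siCtrl and 58.2% in siFAM53C, and that of CBX3 was 38.7% and 33.7%. With CBX5 left out, CBX1 on merged exons made up 53.4%, 47.2% and 52.5% of the sum of CBX1 and CBX3 in siCtrl. In siFAM53C it made up 63.9% and 62.7%, with no overlap between the groups. The shares of CBX1 and CBX3 depend on the length too. On the longest annotated transcript CBX3 had 130 CPM per kilobase in siCtrl and 56.9 in siFAM53C. CBX1 had 74.8 and 54.2 on that length, so CBX3 was above CBX1 in both groups. All of these values are of RNA and not of protein, and in bulk RNA fewer cells with an RNA and less RNA per cell cannot be told apart.

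**Figure D3:**
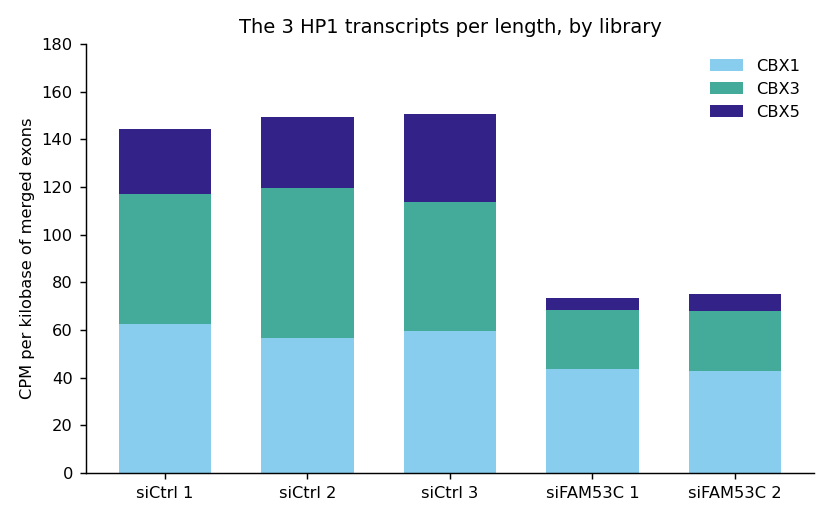
Level of CBX1, CBX3 and CBX5 in CPM per kilobase of merged exons, stacked for each library from 0. The siCtrl stacks reach 144 to 151 and the siFAM53C stacks 73.5 and 74.9, and on this scale per length CBX5 takes the smallest share in every library.

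Among 12095 tested genes with an annotated 3′ UTR, FAM53C left out, 1824 (15.1%) held the heptamer at least once. Their median log2 fold change was -0.14, and 227 of them (12.4%) were lower in the edgeR QL test after BH adjustment. Of the 10271 genes with 0 copies, 296 (2.88%) were lower, and their median was 0.022. The share called lower was 10.9% with 1 copy, 20.8% with 2 copies and 25.6% (10 of 39) with 3 or more, or 23.7% (9 of 38) without CBX5, which had the third lowest log2 fold change there. Low genes of these same data were where the heptamer was found, so these shares are a description and no independent finding. Longer 3′ UTRs hold the heptamer more often, with a median length of 3365.5 bases with it and 1690 without. Among genes with a 3′ UTR of at least 10000 bases, as in CBX5, the share lower was 10.9% of 101 genes with the heptamer (10.0% of 100 without CBX5) and 9.21% of 76 genes that lack it. CBX3 and SUV39H2, which passed the test, hold no copy, and whether the heptamer plays a part in the values of CBX5 or SUV39H1 was not tested.

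**Figure D4:**
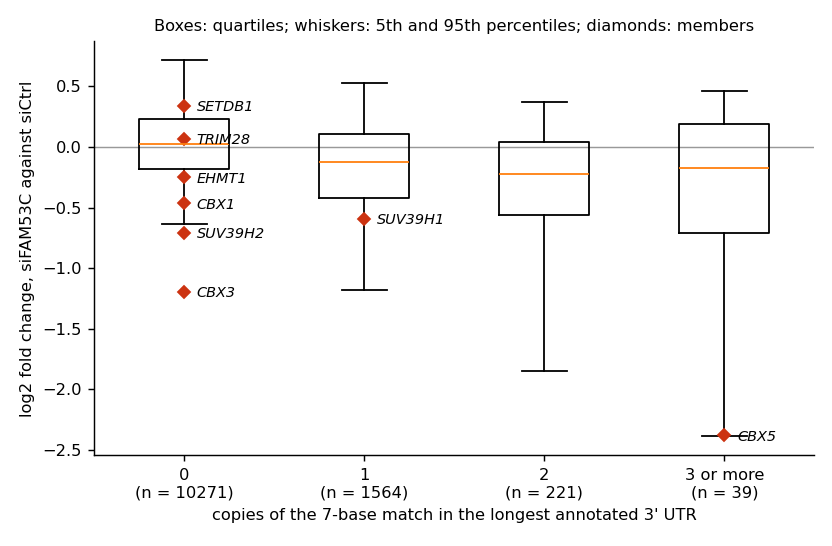
Log2 fold change by the number of GACAAGA copies in the longest annotated 3′ UTR, with a box from the 25th to the 75th percentile, a line at the median and whiskers from the 5th to the 95th percentile of the genes with that number of copies. The medians are 0.022, -0.13, -0.22 and -0.17 for 0, 1, 2 and 3 or more copies, and the diamonds mark the measured HP1 and writer genes.

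The 5 genes whose values over the 5 libraries lay nearest to those of CBX5, by Euclidean distance of log2 CPM centred on the siCtrl mean among 9300 genes with a mean CPM of at least 10, were LRRC58, SDAD1, RAB27B, MIGA1 and DCTN6. LRRC58, at a distance of 0.447, had 112, 125 and 136 CPM in siCtrl and 27.1 and 24.0 in siFAM53C, and its log2 fold change was -2.28. SDAD1 had -2.14, DCTN6 -2.12, RAB27B -2.07 and MIGA1 -2.06 on the same scale. All 5 genes hold the heptamer, with 2 copies in LRRC58 and SDAD1 and 1 copy in each of the others. They were chosen for their likeness to CBX5, and the heptamer was picked from the same data, so both their fold changes and their copies are a description. Of the 22 genes with a 3′ UTR, a mean CPM of at least 10 and a log2 fold change as low as these, CBX5 and FAM53C left out, 19 (86.4%) held the heptamer, or 14 of 17 (82.4%) when the 5 nearest genes are left out too. Of all 8961 genes with a 3′ UTR and a mean CPM of at least 10 it was in 15.6%, and since low genes were where the heptamer was found, this difference is no independent finding.

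The start of CBX5 lies 60 bases from that of HNRNPA1, a gene for an RNA-binding splicing protein that is read in the opposite direction (chr12:54280193-54287088, plus strand). HNRNPA1 had 1254, 1175 and 975 CPM in siCtrl and 1125 and 971 in siFAM53C. The groups overlapped, and its log2 fold change was -0.11 (SE 0.15, BH-adjusted p = 0.7709, edgeR QL test), against -2.38 for CBX5. The start of CBX3 overlaps that of HNRNPA2B1, a related splicing gene on the opposite strand (chr7:26171151-26201529), by 368 bases, and this gene was added after its values were seen. HNRNPA2B1 had 1198, 1137 and 1093 CPM in siCtrl and 1066 and 1059 in siFAM53C. Both siFAM53C values lay below every siCtrl value, and the log2 fold change was -0.11 (SE 0.11, BH-adjusted p = 0.7158, edgeR QL test). Neither neighbour had a log2 fold change near that of the HP1 gene next to it, and these differences between neighbours were not tested. For the non-coding neighbours, SUV39H2-DT had a log2 fold change of 0.43 (SE 0.53) on 14 to 33 counts per library and ARRDC1-AS1, next to EHMT1, one of 0.17 (SE 0.17). C2, next to EHMT2, and RN7SL525P, next to TRIM28, had 0 counts.

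Promoters were searched for the binding motif of E2F factors, the transcription factors of the G1/S transition, spelled TTTCCCGC, TTTCGCGC, TTTGCCGC or TTTGGCGC on either strand. In RefSeq promoters of GRCh38.p14, from 250 bases before to 50 after a start, 8 of the 9 genes had an entry, with 12 promoters in all. The motif was in 1 of them, that of CBX3, and in 1164 of 35116 promoters (3.31%) overall. Processed copies of these genes were also counted, since they can take reads from their parent. Of 16 annotated CBX pseudogenes, 12 had 0 counts, and CBX3P9 had 40, 39 and 24 counts in siCtrl and 10 and 14 in siFAM53C, against 4986 to 6223 and 3158 and 2897 for CBX3.

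Genes related to HP1 and the writers were read next. Over 47 genes, namely 14 writer partners, 22 HP1 partners and downstream genes and 11 demethylases of lysine 9, all of them tested, 3 were lower (6.38%, against 3.47% of all genes) and 0 higher in the edgeR QL test after BH adjustment. Before adjustment (p under 0.05), 10 were lower (21.3%, against 10.5%) and 3 higher (6.38%, against 6.61%). DESeq2 called 7 lower (15.6% of the 45 it tested, against 6.98%) and 2 higher (4.44%, against 2.02%), and the fit with a term for the split called 9 lower (19.1%, against 10.7%) and 2 higher (4.26%, against 6.76%). Their median log2 fold change was -0.051, against 0.016 over all genes tested. The 3 genes that fell, UHRF1, ADNP and SGO1, are all in the list of HP1 partners and downstream genes, where the median was -0.17. DAXX, with the lowest log2 fold change of that list (-1.17), had only 6 to 24 counts per library and lies in the same stretch of chromosome 6 as EHMT2. The 2 genes that DESeq2 called higher were KMT5C (0.74, SE 0.17), which methylates lysine 20 of histone H4 in heterochromatin, and AHDC1 (0.53, SE 0.12), both named after their values were seen. None of UHRF1, ADNP and SGO1 passed when siCtrl replicate 1, siCtrl replicate 2 or either siFAM53C library was left out. Scaled by library totals alone, SGO1 also missed the threshold (BH-adjusted p = 0.06248, edgeR QL test), which left 2 of the 47 lower.

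UHRF1, which binds methylated lysine 9 and brings the DNA methyltransferase DNMT1 to newly copied DNA, had 264, 239 and 257 CPM in siCtrl and 163 and 168 in siFAM53C. It fell by 0.61 on the log2 scale (SE 0.10, BH-adjusted p = 0.02064, edgeR QL test), whereas DNMT1 had a log2 fold change of 0.039 (SE 0.10). ADNP, which forms a complex with HP1 proteins and the remodeler CHD4, had 133, 144 and 145 CPM in siCtrl and 96.4 and 96.1 in siFAM53C. It fell by 0.54 (SE 0.10, BH-adjusted p = 0.02679, edgeR QL test), and the log2 fold change of CHD4 was 0.12 (SE 0.11). SGO1 (shugoshin), which protects cohesion at centromeres, had 25.4, 20.9 and 29.2 CPM in siCtrl and 11.6 and 14.6 in siFAM53C. It fell by 0.94 (SE 0.20, BH-adjusted p = 0.04211, edgeR QL test). For all 3 genes, which are described here because they were called lower, the siFAM53C values lay below every siCtrl value. This was so for 14 of the 47 genes and for 18.8% of all genes tested. Within the sides of the split UHRF1 differed by -0.62 and -0.61, ADNP by -0.52 and -0.59 and SGO1 by -0.99 and -0.99.

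Among the writer partners 0 of 14 passed in either direction in the edgeR QL test, with 3 lower (21.4%, against 10.5% of all genes) and 0 higher before adjustment (p under 0.05), 2 lower (14.3%, against 6.98%) and 0 higher with DESeq2 and 0 in either direction with limma-voom. The largest log2 fold changes there were those of MECOM (-0.56), TASOR (-0.44), a subunit of the HUSH silencing complex, and PRDM16 (-0.28). This list is mixed, since SETDB2, PRDM2, MECOM and PRDM16 in it are relatives of the writers rather than partners. MECOM ranged from -0.80 to -0.36 with 1 library left out. MECOM and TASOR were the 2 called lower by the fit with a term for the split (14.3%, against 10.7%). The same 2 were called by the replicate block by column names (14.3%, against 8.80%), and 0 were higher in either fit. Of the 11 demethylases that remove the mark, 0 passed in the edgeR QL test, DESeq2 or limma-voom, with 0 lower (10.5% of all genes were) and 1 higher (9.09%, against 6.61%) before adjustment (p under 0.05). KDM7A (-0.48), PHF8 (0.35) and KDM4B (0.16) had the largest log2 fold changes, with KDM4A (-0.16) about as large as KDM4B. With 1 library left out, KDM7A ranged from -0.72 to -0.21 and KDM4B from 0.013 to 0.29.

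**Figure D5:**
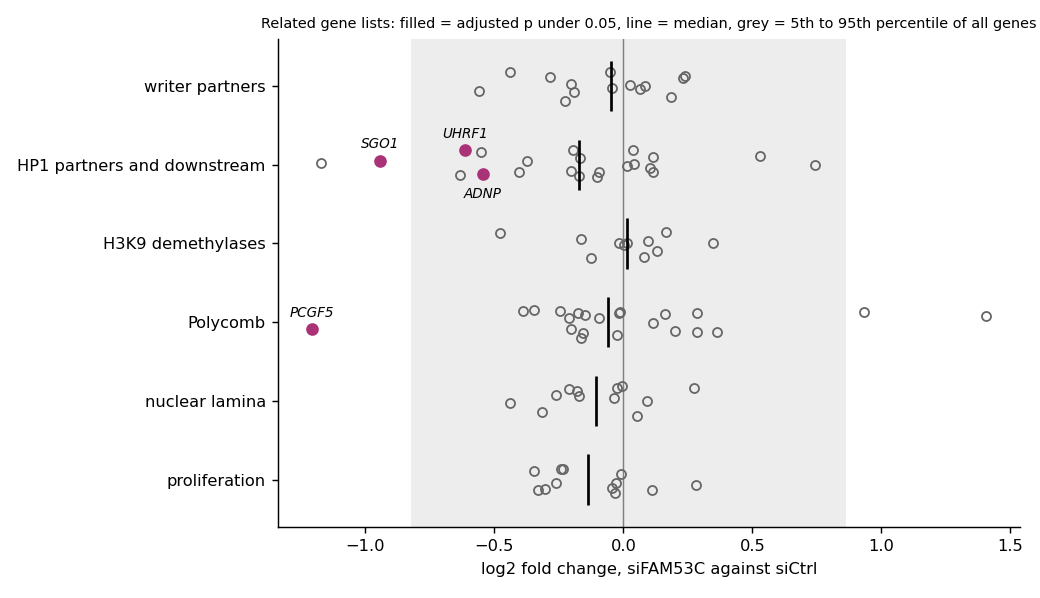
Log2 fold change of each tested gene, 1 point per gene, by list, for the partner and demethylase lists, Polycomb, nuclear lamina and proliferation genes, with a line at the median of each list, filled points for genes that passed the test and a grey band from the 5th to the 95th percentile of all genes tested. UHRF1, ADNP and SGO1 are the filled points among the HP1 partners, PCGF5 is the only other one, and the list medians lie between -0.17 and 0.015.

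Cell state was measured beside these values. Of 12 proliferation genes, all tested, 0 passed in the edgeR QL test after BH adjustment, with 1 lower (8.33%, against 10.5% of all genes) and 0 higher (against 6.61%) before adjustment (p under 0.05), and DESeq2 and limma-voom also called 0. The fit with a term for the split called 5 lower (41.7%, against 10.7% of all genes) and 1 higher (8.33%, against 6.76%), and the fit with a replicate block by column names 3 lower (25%, against 8.80%) and 0 higher. TOP2A (-0.46 with the split term), CCNA2 (-0.37) and MCM6 (-0.29) were lower in both of these fits. Without such a term the median log2 fold change of the 12 genes was -0.14. Of them 10 were below 0, whereas RRM2 had 0.28 (SE 0.14) and AURKB 0.11 (SE 0.11). The summed level of the 12 genes was 3207, 3351 and 4102 CPM in siCtrl and 3013 and 3645 in siFAM53C. The groups overlapped, and MKI67, the most abundant, had a log2 fold change of -0.043 (SE 0.21). The part of proliferation in the values of the HP1 and writer genes was not tested.

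The labelled cell type, epithelial cells, was checked against markers. KRT8 had 285, 257 and 236 CPM in siCtrl and 319 and 328 in siFAM53C, with no overlap. Its log2 fold change was 0.32 (SE 0.12, BH-adjusted p = 0.2225, edgeR QL test). KRT8 passed the threshold in 3 of 15 alternatives, among them the fit with a term for the split. Of the 3 epithelial markers tested, 0 passed in the edgeR QL test after BH adjustment. Before adjustment (p under 0.05), 0 were lower (against 10.5% of all genes) and 1 higher (33.3%, against 6.61%). KRT18 (0.084, SE 0.12) and KRT7 (-0.035, SE 0.28), given as log2 fold changes, had groups that overlapped, while EPCAM, CDH1 and KRT19 had too few counts to be tested. Of 8 markers of pigment epithelium, 4 were tested and 0 passed in the edgeR QL test, DESeq2 or limma-voom, with 0 lower or higher before adjustment (p under 0.05). RPE65 and TTR were at 0 in all libraries, and MITF had 34.0, 37.3 and 48.8 CPM in siCtrl and 34.8 and 44.7 in siFAM53C. OTX2 had 17.1, 14.7 and 16.2 CPM in siCtrl and 13.5 and 14.4 in siFAM53C, with both siFAM53C values below every siCtrl value and a log2 fold change of -0.20 (SE 0.16). BEST1 (-1.19, SE 0.85) and PMEL (0.50, SE 0.56) had only 4 to 29 counts per library. VIM, a mesenchymal marker, had 3515 to 4146 CPM in siCtrl and 3226 and 3872 in siFAM53C. The leukocyte markers summed to at most 1.05 CPM and the endothelial markers to at most 1.66 CPM in any library, against 13.2 CPM or more for each HP1 and writer gene other than EHMT2.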

How the data were processed

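Conditions were taken from the sample labels. The authors trimmed paired reads (CutAdapt 2.10 in the submitters' processing notes), aligned them to hg38 with HISAT2 and counted them per gene with featureCounts; they deposited raw counts, with no annotation release given in the sources used here. Reads were aligned as reverse-stranded; whether the counting used strand is not given in the sources used here.

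The analysis ran in edgeR 4.0.16 under R 4.3.3 over all genes and libraries, with filterByExpr at a count of 10 and a total of 15, TMM factors, a robust quasi-likelihood fit on condition alone, Benjamini-Hochberg adjustment over 15341 genes and a threshold of 0.05. CPM use TMM-scaled library sizes, and the log2 CPM of the within-side differences and distances a prior count of 2. Symbols, positions, exon lengths and 3′ UTRs are from GENCODE release 44 (GRCh38), which named 56105 of 64252 identifiers, and RefSeq gave the promoters. On simulated counts, edgeR recovered 96 of 100 genes changed by 2 and 69 of 100 changed by 1 on the log2 scale, with 13 false calls, over 14855 genes tested in all. The changed genes were drawn only from those above a cutoff in mean CPM, and the simulation held no library split. Its recovery and false calls therefore need not hold for the real libraries. Alternatives were DESeq2 1.42.0, limma-voom (limma 3.58.1), other size factors and filters, replicate blocks, a term for the library split, p-values without adjustment and fits that left out 1 library each. The p-values without adjustment are those of the reported fit, so a gene passes there more easily, and they count as 1 of the 15 alternatives.

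Members and gene lists were chosen with earlier results of these data known. Genes were named by a rule: the members, FAM53C, genes sharing a promoter with a member, member pseudogenes, the called genes of each list (or up to 3 with the largest change), and the 5 genes nearest to CBX5; genes outside it are named as partners, markers or comparisons. Depth, 19260124 to 25615415 counts per library, limits precision for genes with few counts.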

Additional observations from a re-analysis of the deposited data

How the results depend on the processing

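CBX3 was called lower under all 15 alternatives (-1.23 to -1.12), and CBX5 ranged from -2.59 to -2.21 on the log2 scale. Of the other members, 2 were lower in the analysis reported, 4 with DESeq2, 5 with the term for the library split, 5 at an unadjusted p under 0.05, and 1 to 3 with 1 library left out. None was higher (0) under any of these. Of the 47 partner and demethylase genes, 3 were lower as reported, 7 with DESeq2, 7 with no filter on low counts, 2 with library totals only, 9 with the split term, 10 unadjusted and 0 to 4 with 1 library left out. Of the same genes 0 were higher as reported, 2 with DESeq2, 1 with library totals only, 1 with no filter, 2 with the split term, 3 unadjusted and 0 to 2 with 1 library left out. Over all genes, 533 were lower as reported, 890 with DESeq2, 961 with no filter, 1636 with the split term, 1607 unadjusted and 157 to 886 with 1 library left out. Over all genes, 75 were higher as reported, 257 with DESeq2, 121 with library totals only, 375 with no filter, 1037 with the split term, 1014 unadjusted and 6 to 414 with 1 library left out. A fit that leaves 1 siFAM53C library assumes that it varies like the siCtrl libraries.

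A replicate block by the numbers in the titles gave 856 lower and 355 higher genes, 3 of the other members lower, and 4 partner and demethylase genes lower and 1 higher. A replicate block by the numbers in the column names gave 1350 and 642 genes, 4 other members lower, and 8 partner and demethylase genes lower and 2 higher. The numbers were not shown to pair the libraries: deviations from the group means correlated at 0.17 and -0.28 for the same title numbers and at 0.17 and 0.37 for the same column numbers, with only 2 shared numbers each.

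The CBX5 share of the HP1 level was 21.1% in siCtrl and 8.10% in siFAM53C as reported, 16.6% and 6.58% with the length of the longest transcript, and 50.5% and 26.3% without length scaling. With 1 library left out it was 19.4% to 22.3% in siCtrl and 7.11% to 9.10% in siFAM53C. Among the genes run through the alternatives, STAG3 (-0.42 as reported) changed sign in the block by titles (0.29) and without siCtrl replicate 3 (0.36), and with 1 library left out it ranged from -0.96 to 0.36. KRT7 (-0.035) changed sign with limma-voom (0.0080), library totals (0.039), the block by column names (0.22), the split term (0.064), without siCtrl replicate 2 (0.21) and without siFAM53C replicate 2 (0.031), and with 1 library left out it ranged from -0.21 to 0.21. MKI67 (-0.043) changed sign with library totals (0.025), the block by titles (0.19) and with 1 library left out (-0.20 to 0.20), and FN1 (0.13) with 1 library left out (-0.040 to 0.34). None of these genes was called where its sign changed, and the cause was not tested. Over the 54 genes run through the alternatives, CBX5 left out, 681 values kept direction and side of the threshold, 81 passed it newly, 21 no longer passed and 13 reversed. With 3 and 2 libraries per group, small changes of low genes such as SUV39H1 may not be detectable at this depth.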

Other observations

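Polycomb proteins, which silence genes through another histone mark and include further chromobox proteins, were examined beside the HP1 genes. Of 24 listed genes 22 were tested, and 1 was lower and 0 higher in the edgeR QL test after BH adjustment, with 2 lower and 3 higher before adjustment (p under 0.05). These shares, 4.55% lower after adjustment and 9.09% lower and 13.6% higher before it, stand beside 3.47%, 10.5% and 6.61% over all genes tested. The one that fell was PCGF5, a subunit of a variant Polycomb complex, with 99.2, 110 and 106 CPM in siCtrl and 45.7 and 45.5 in siFAM53C, so that its log2 fold change was -1.21 (SE 0.11, BH-adjusted p = 0.001254, edgeR QL test). PCGF5 passed under all 15 alternatives. CBX6, a chromobox protein of Polycomb, had 191, 158 and 114 CPM in siCtrl and 338 and 252 in siFAM53C. Its groups did not overlap, with a log2 fold change of 0.93 (SE 0.23, BH-adjusted p = 0.0774, edgeR QL test). CBX7 had 1.57, 2.25 and 2.04 CPM in siCtrl and 4.38 and 5.98 in siFAM53C, and its log2 fold change was 1.41 (SE 0.32, BH-adjusted p = 0.05699, edgeR QL test). CBX6 and CBX7 each passed in 7 of 15 alternatives, DESeq2 among them.

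Further gene groups were read. Of 15 germline genes silent in other tissues, 11 were at 0 counts in all libraries. STAG3, the only one tested, had a log2 fold change of -0.42 (SE 0.64). Its sign changed without siCtrl replicate 3 (0.36) and in the block by titles (0.29), so its direction is not settled. Of 240 ZNF genes on chromosome 19, a list added after other values were seen, 194 were tested and 0 passed in either direction in the edgeR QL test after BH adjustment, with 7 lower (3.61%, against 10.5% of all genes) and 8 higher (4.12%, against 6.61%) before adjustment (p under 0.05). DESeq2 called 3 lower (1.74%, against 6.98%) and 1 higher (0.581%, against 2.02%), and limma-voom 0. Their median log2 fold change was 0.064, against 0.016 over all genes. Of 12 nuclear lamina genes, 0 passed in the edgeR QL test, with 2 lower (16.7%, against 10.5% of all genes) and 1 higher (8.33%, against 6.61%) before adjustment (p under 0.05), 1 lower (8.33%, against 6.98%) and 0 higher with DESeq2 and 0 with limma-voom. The fit with a term for the split called 2 lower (16.7%, against 10.7%) and 1 higher (8.33%, against 6.76%). The block by column names called 2 lower (16.7%, against 8.80%) and 0 higher. TMPO (-0.44), LMNB1 (-0.32) and EMD (0.27) had the largest log2 fold changes. TMPO and LMNB1 were lower in both of these fits, and EMD was higher with the split term. Of the 5 mesenchymal markers tested, 0 were lower and 1 higher (0.489% of all genes were) after adjustment, and 2 were lower and 1 higher before it (p under 0.05), against 10.5% and 6.61% of all genes. The fit with a term for the split called 1 of the 5 lower (20%, against 10.7%) and 1 higher (20%, against 6.76%). The block by column names also called 1 lower (against 8.80%) and 1 higher (against 4.18%). CDH2 (-0.44, SE 0.17) and SNAI2 (-0.43, SE 0.18) had both siFAM53C libraries below every siCtrl library, as had 18.8% of all genes. CDH2 passed in 4 of 15 alternatives and SNAI2 in 1, that of the p-values without adjustment. VIM had -0.14 and FN1 0.13 on the log2 scale. COL1A1 rose by 0.74 (SE 0.14, BH-adjusted p = 0.03098, edgeR QL test), a call lost without siCtrl replicate 1, siCtrl replicate 2 or either siFAM53C library.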
